A study of Mus musculus with 24 samples.

Results

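The genes described here were 39 named genes of glycolysis and of the transcriptional response to low oxygen, out of 53801 genes listed for each library. They were chosen by name because their direction in co-culture against control had already been seen in these data in both culture models, so that their co-culture values are a description and were not tested. All 39 matched a gene of the table. Murine pancreatic stellate cells (PSC), fibroblast-like cells of the pancreas that are thought to give rise to part of the fibroblasts in the stroma of pancreatic cancer, came from wild-type C57BL/6J mice of 7 to 10 weeks, with 4 to 10 pancreata pooled for an isolation, and were used at passage 1 to 2. They were grown alone (control PSC) or across a membrane with 1 µm pores from KPC cells, a single carcinoma line from a mouse in which Cre under the p48 promoter switched on oncogenic alleles, Trp53 R172H among them. In the standard model, also called distant paracrine, the 2 cell types lay in separate compartments, and in the inverse model, called close paracrine, on opposite faces of 1 membrane. RNA of the PSC was sequenced at 24 h and 72 h, which gave 8 groups of 3 libraries, and the medium was not changed in between. The cells coexisted for up to 96 h in the inverse and 72 h in the standard model. The study's methods call the 3 libraries of a group biological replicates without saying whether they came from separate isolations, so the p-values measure only the spread between these libraries, part of which may be technical.

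Glycolysis turns glucose into pyruvate, which either enters mitochondria or is reduced to lactate and exported. Hypoxia-inducible factor (HIF) is made of an oxygen-labile alpha subunit and a stable partner. Prolyl hydroxylases mark the alpha subunit for destruction while oxygen is present, and in its absence HIF binds short hypoxia response elements and raises the transcription of glucose transporters, glycolytic enzymes, lactate exporters and mitochondrial regulators. In fibroblasts of tumours this programme is known as a source of lactate for neighbouring cells. Hif1a itself is controlled mainly at the protein level, which RNA sequencing does not measure.

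Of the 39 genes, 34 had a promoter entry in RefSeq on GRCm38.p6, in 52 windows of 300 bases that run from 250 bases before a gene's start to 50 after it. Bhlhe40, Bnip3l, Epas1, Ndrg1 and Slc2a3 had none. The core of the hypoxia response element was searched as ACGTG or GCGTG on both strands, with overlapping matches counted as 1 site. It stood in 40 of the 52 windows (76.9%), against 43.8% of all 32851 windows of the table, and at 2 or more sites in 29 of them (55.8%), against 17.3%. The median content of G and C was 63.8% in the members' windows and 52.7% in all of them, and the core contains a CG pair. The E-box CACGTG, which contains ACGTG, was in 5 of the 52 windows (9.62%), against 7.15% of all. These letters are a description of the sequence and were not measured as binding sites.

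**Figure D1:**
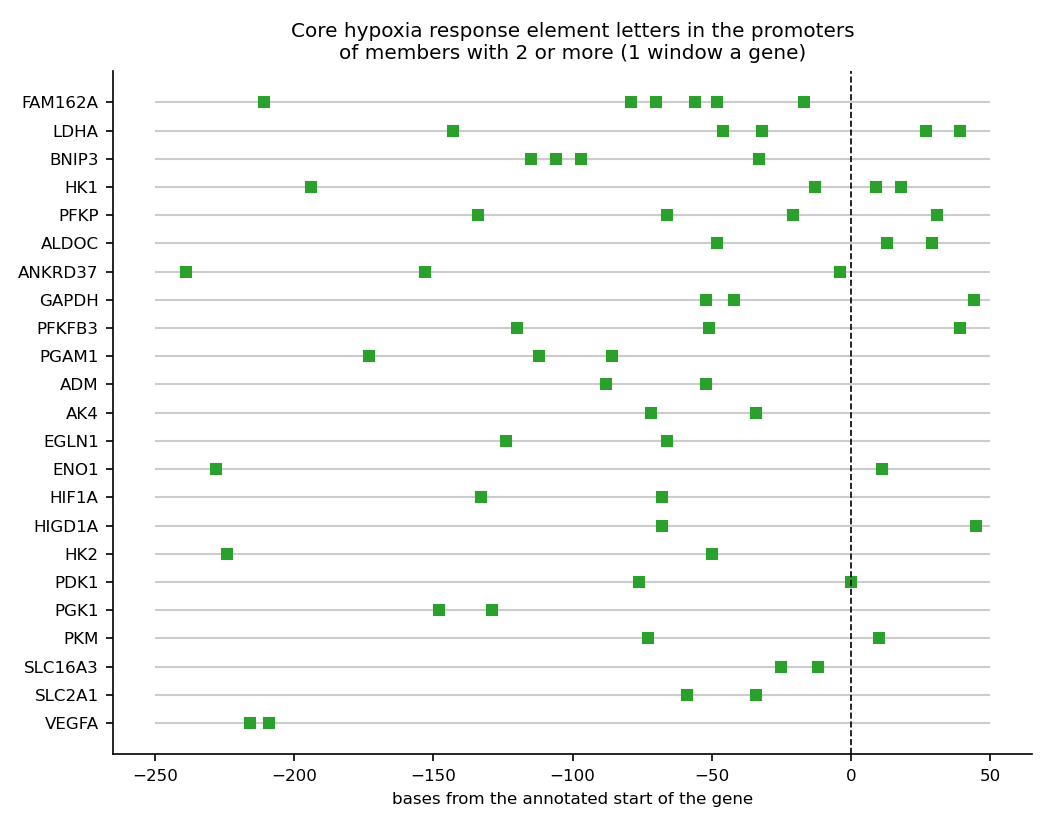
Places of the hypoxia response element core in the RefSeq promoters of the 23 members that had 2 or more sites in a window, as bases from the annotated start (dashed line) for the window with the most sites. Fam162a had 6 sites, Ldha had 5, and Bnip3, Hk1 and Pfkp had 4 each.

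The windows shown were chosen by their number of sites alone, 4 or more. Genes that stood much higher in co-culture and genes that did not are both among them. Fam162a, Ldha and Bnip3 were higher in co-culture in all 4 comparisons below, whereas Pfkp was lower in all of them and Hk1 had no common direction. The lines give the 250 bases before the start on the gene's own strand, from RefSeq, with the core letters in capitals. They lie at chr16:36071562-36071811 (minus strand) for Fam162a, chr7:46845554-46845803 (plus strand, an alternative RefSeq start that none of the annotated transcripts held) for Ldha, chr7:138909507-138909756 (minus strand) for Bnip3, chr10:62340422-62340671 (minus strand) for Hk1 and chr13:6648772-6649021 (minus strand) for Pfkp.
Fam162a: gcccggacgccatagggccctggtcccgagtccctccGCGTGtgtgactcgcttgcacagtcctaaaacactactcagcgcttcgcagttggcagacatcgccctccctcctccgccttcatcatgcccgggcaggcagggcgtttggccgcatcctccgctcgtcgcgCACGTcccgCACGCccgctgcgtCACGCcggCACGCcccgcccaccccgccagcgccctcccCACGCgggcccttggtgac
Ldha: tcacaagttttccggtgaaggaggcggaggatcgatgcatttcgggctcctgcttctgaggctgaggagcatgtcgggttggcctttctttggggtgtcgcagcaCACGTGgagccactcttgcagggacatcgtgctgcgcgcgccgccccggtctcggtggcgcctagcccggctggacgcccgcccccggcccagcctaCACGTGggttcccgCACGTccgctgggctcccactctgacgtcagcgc
Bnip3: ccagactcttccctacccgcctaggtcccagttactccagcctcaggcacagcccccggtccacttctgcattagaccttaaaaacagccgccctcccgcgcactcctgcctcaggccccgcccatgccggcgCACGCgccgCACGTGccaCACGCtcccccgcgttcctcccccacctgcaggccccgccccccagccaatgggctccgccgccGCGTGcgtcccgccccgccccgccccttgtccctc
Hk1: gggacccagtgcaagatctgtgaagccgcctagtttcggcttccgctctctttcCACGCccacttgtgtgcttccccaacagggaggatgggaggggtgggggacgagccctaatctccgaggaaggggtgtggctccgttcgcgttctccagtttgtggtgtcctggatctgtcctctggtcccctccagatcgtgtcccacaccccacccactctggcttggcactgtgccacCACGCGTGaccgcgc
Pfkp: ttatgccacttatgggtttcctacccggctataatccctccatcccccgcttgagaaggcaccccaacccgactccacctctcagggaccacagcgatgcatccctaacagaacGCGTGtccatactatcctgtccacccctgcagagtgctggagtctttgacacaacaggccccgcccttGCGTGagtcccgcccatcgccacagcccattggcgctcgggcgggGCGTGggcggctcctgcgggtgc
In Ldha, 2 of the sites were E-boxes, and in Bnip3 there was 1. Some sites of Ldha, Hk1 and Pfkp lie after the start and are not printed.

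Between 15932737 and 24798761 fragments had been counted in a library, and 12277 to 13307 genes were above 1 FPKM (fragments scaled to transcript length and library size). Of 12 stellate and fibroblast markers, 11 were above 1 FPKM in every group, although Gfap, a stellate cell marker, was at or near 0 throughout. Epithelial markers, which KPC cells could bring, summed to 2.03 to 15.6 FPKM in 23 libraries and to 57.7 in replicate 2 of the inverse 24 h co-culture, where Krt8 was at 15.2 FPKM, Krt18 at 11.7, Krt19 at 11.6 and Epcam at 0.107. The other inverse co-culture libraries also held keratin transcripts: Krt19 was at 1.64, 11.6 and 2.53 FPKM at 24 h and at 1.83, 1.17 and 3.11 FPKM at 72 h, against 0 to 0.370 FPKM in the 6 inverse controls. Krt8 and Krt18 were at 0 in each inverse control and reached 3.14 and 1.23 FPKM in inverse co-culture at 72 h. Their part in the co-culture values was not tested. Macrophage markers were highest in replicate 2 of each standard group, at 463 to 1562 FPKM. In bulk RNA, fewer cells of a type and less RNA per cell cannot be told apart.

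In co-culture against control, most of the members were higher, and more so at 72 h than at 24 h. On the scale of log2(FPKM + 0.5), the median difference over the members tested was 0.19 at 24 h and 0.56 at 72 h in the standard model, against -0.01 and -0.09 over all genes tested. In the inverse model it was 0.41 and 0.63, against -0.06 and -0.16 over all genes. The number of members with a higher mean was 27 of 37 and 31 of 38 in the standard model and 31 of 37 and 29 of 37 in the inverse model, where 47.5%, 34.5%, 37.9% and 31.7% of all genes tested were higher. Of the 37 members tested in all 4 comparisons, 25 were higher and 5 lower in each of them. These counts restate in part how the genes were chosen.

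The limma test, run across all genes with Benjamini-Hochberg adjustment and an adjusted p limit of 0.05, called no gene of the table in either standard comparison (0% of 12859 and of 12863 genes), with 371 and 800 genes at an unadjusted p under 0.05. It called 2.47% of 12827 genes in the inverse model at 24 h and 12.8% of 13066 at 72 h. Among the members it called 1 higher and 0 lower at 24 h, beside 1.08% and 1.39% of all genes, and 18 higher and 2 lower at 72 h, beside 3.27% of all genes called higher and 9.57% called lower, and nothing is read from these counts because the rule used the contrast. With libraries of the same number as a block, 157 genes were called in the standard model at 24 h, among them 1 member, Adm, which was lower. At 72 h the same block called 1 gene, and no member. All 3 co-culture libraries lay above all 3 controls for 2 members in the standard model at 24 h, 6 at 72 h, and for 12 and 23 members in the inverse model, beside 3.35%, 3.36%, 7.38% and 9.53% of all genes tested. They lay below all controls for 1, 0, 2 and 2 members in the same order, beside 4.38%, 9.78%, 13.8% and 28.8% of all genes. In the standard model, 16 of 37 members at 24 h and 23 of 38 at 72 h were higher in co-culture in each of the 3 same-numbered pairs, beside 17.5% and 10% of all genes tested, and 6 and 2 members were lower in each pair, beside 20.7% and 26%.

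**Figure D2:**
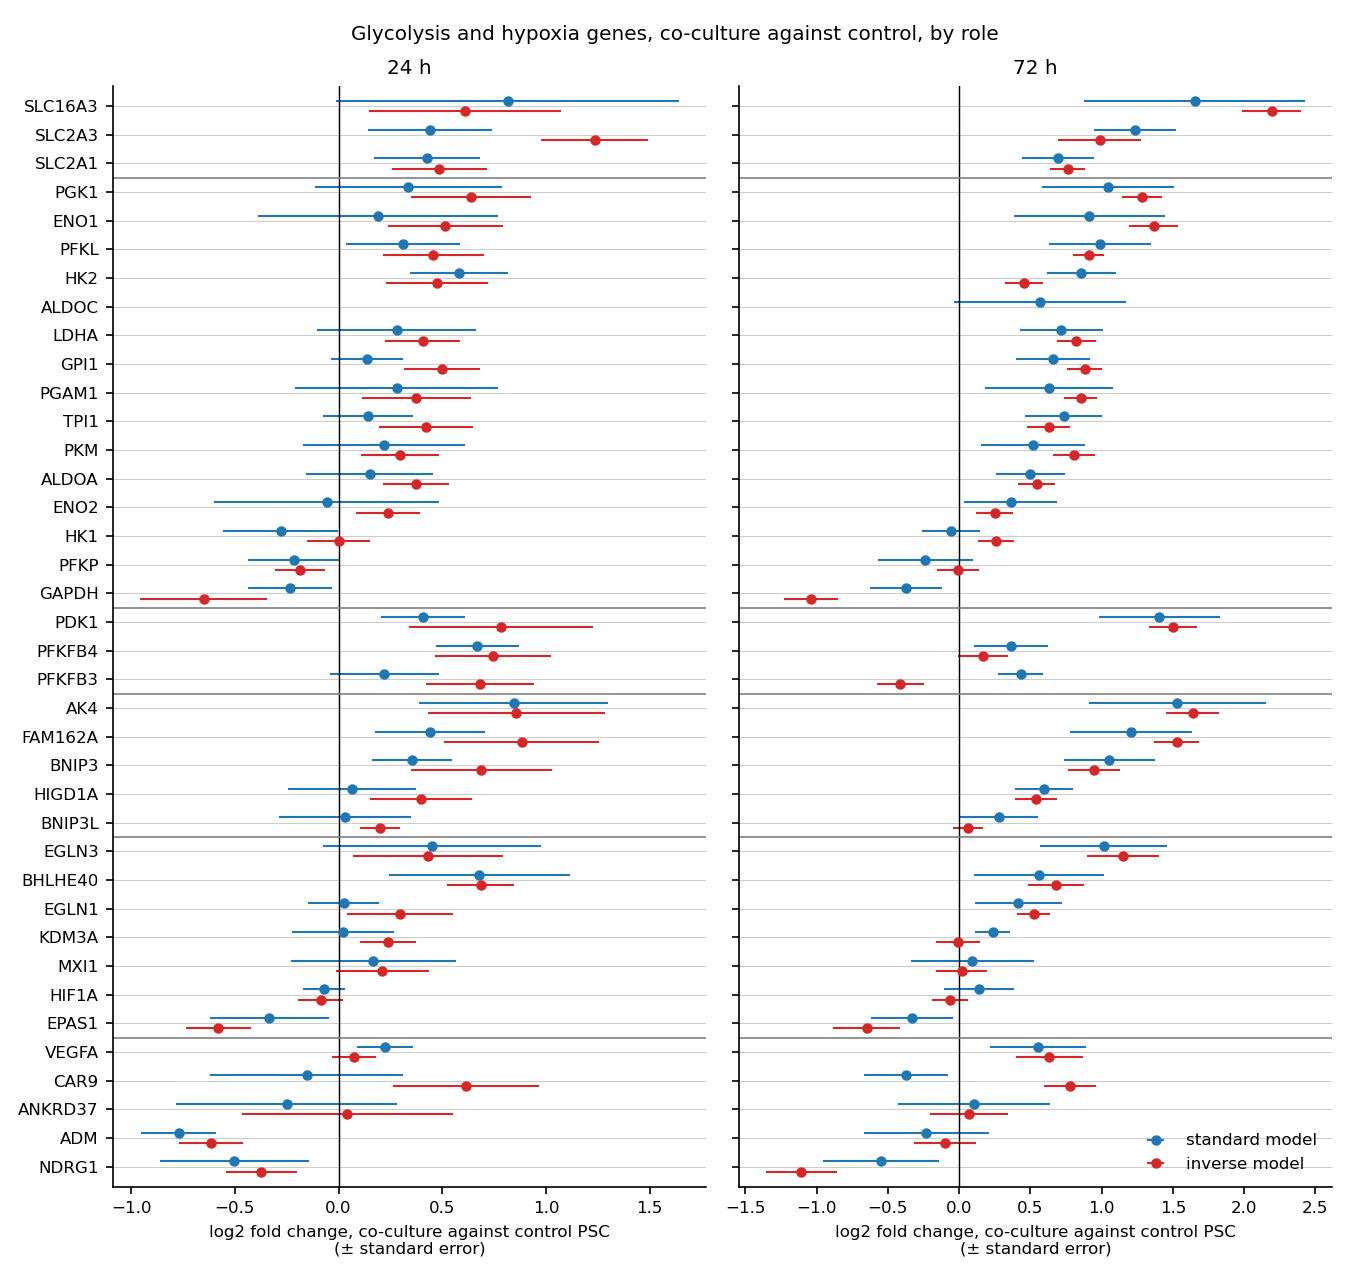
Log2 fold change of co-culture against control PSC with its standard error, for the 38 members tested in at least 1 comparison, at 24 h (left) and 72 h (right), grouped by role. Transporters and mitochondrial proteins lie right of 0 in all 4 comparisons, while Adm, Ndrg1, Epas1, Gapdh and Pfkp lie left of it.

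The individual libraries did not share this evenly. The summed level of the 39 genes in the inverse 24 h co-culture was 7476, 7703 and 13229 FPKM in replicates 1, 2 and 3, against 6534 to 7462 in the controls. Replicate 3 alone stood far above the controls, and without it the median difference was 0.14 in place of 0.41 and 25 members were higher in place of 31. Leaving it out moved the 24 h difference of 27 of 37 members by over 1.5 times or turned its sign. At 72 h in the inverse model the sums were 10788, 8388 and 9322 FPKM in co-culture and 5417 to 5633 in the controls, with no overlap. In the standard model at 72 h they were 9962, 10046 and 5921 FPKM in co-culture and 7626, 4826 and 4547 in the controls of the same numbers. There the groups overlapped, with control replicate 1 high and co-culture replicate 3 low. At 24 h the standard sums were 8186, 5444 and 5123 FPKM against 8102, 4297 and 4737, so that replicate 1 was high in both cultures. Without co-culture replicate 1, the median difference at 24 h was 0.04, and without control replicate 2 or 3 it was 0.11.

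Of the transporters, Slc16a3 (MCT4, ENSMUSG00000025161, chr11:120948480-120960868 on GRCm38.p6, plus strand), which exports lactate, had the largest difference of all members. Inverse PSC at 72 h had it at 179, 105 and 161 FPKM in co-culture and 26.4, 35.4 and 32.8 FPKM in control PSC. No co-culture library came near a control, and the log2 difference was 2.19 ± 0.21 (SE, n = 3 and 3). Its levels in standard PSC at 72 h were 158, 144 and 38.5 FPKM in co-culture against 83.3, 19.1 and 17.1 FPKM (1.65 ± 0.77). Each co-culture library was above the control of its number, but the groups overlapped. The 24 h levels were 56.5, 63.7 and 242 FPKM against 69.4, 61.4 and 57.3 FPKM in the inverse model (0.61 ± 0.46), where only replicate 3 exceeded the controls. Standard PSC at 24 h held it at 106, 33.1 and 25.3 FPKM against 76.3, 11.5 and 17.9 FPKM (0.82 ± 0.83, an error that does not use the pairing of libraries by number). The groups overlapped, and each co-culture library was above the control of its number. The inverse difference at 24 h was -0.06 without replicate 3 of the co-culture, and the standard one was 0.20 without replicate 1 of the co-culture, 0.27 without replicate 2 of the controls and 1.605 without replicate 1 of the controls.

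Slc2a3 (GLUT3), a glucose importer best known from neurons, was low throughout, with 26 to 175 fragments in a library. Its levels in the inverse model were 2.88, 2.68 and 4.09 FPKM in co-culture against 1.34, 0.980 and 0.887 FPKM at 24 h, and 4.48, 2.82 and 5.42 against 2.48, 1.35 and 1.79 FPKM at 72 h. Those in standard PSC were 1.66, 3.12 and 3.39 against 1.55, 2.07 and 1.80 FPKM at 24 h, and 3.36, 4.73 and 2.79 against 0.828, 1.51 and 1.41 FPKM at 72 h. The groups did not overlap except in the standard model at 24 h. Slc2a1 (GLUT1), the widespread glucose importer, was far more abundant per length (group means of 50.9 to 129.8 FPKM, against 1.07 to 4.24 FPKM for Slc2a3) and differed by 0.43 ± 0.26, 0.69 ± 0.25, 0.49 ± 0.23 and 0.76 ± 0.13 (log2, SE) in the standard model at 24 h and 72 h and the inverse model at 24 h and 72 h.

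The glycolytic enzymes spanned the chain. In the inverse model at 72 h, 12 of the 14 tested were higher, with a median of 0.72 (log2), and in the standard model 12 of 15 with a median of 0.63. Pgk1 (ENSMUSG00000062070), which makes the first ATP of the pathway, was at 459.9, 334 and 361 FPKM in co-cultured inverse PSC at 72 h, against 140.5, 161 and 169 FPKM in its controls, a log2 difference of 1.28 ± 0.14 with no overlap. Levels in the standard model at 72 h were 437, 444 and 189 FPKM against 283, 131 and 113 FPKM (1.04 ± 0.46), where replicate 3 of the co-culture lay among the controls. Its levels at 24 h were 286, 305 and 686 FPKM against 259, 271 and 225 FPKM in the inverse model, and 344, 189 and 164 against 320.3, 122 and 135 FPKM in the standard model. Inverse replicate 3 was again far above the other libraries of its group.

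Eno1, the enolase of most tissues, was among the most abundant members. Its 72 h levels in the inverse model were 1895, 1287 and 1639 FPKM in co-culture against 543, 697 and 617 FPKM in control PSC (1.36 ± 0.17), with every co-culture library above every control. For standard PSC at 72 h the levels were 1784, 1567 and 735 FPKM against 1374, 481 and 465 FPKM (0.91 ± 0.53). Those groups overlapped, and leaving out 1 library gave differences of 0.64 to 1.43. The levels at 24 h were 1140.2, 1249.7 and 2622 FPKM against 1181, 1141 and 952 FPKM in the inverse model and 1422, 639 and 616 against 1609, 443 and 528 FPKM in the standard model. At 24 h the groups overlapped in both models. Eno2, the neuronal enolase, was at a small part of that level and differed by 0.25 ± 0.13 in the inverse model at 72 h.

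Pfkl, the liver type of the committing enzyme phosphofructokinase, was at 348, 282 and 292 FPKM in inverse co-culture at 72 h against 157, 165 and 167 FPKM (0.91 ± 0.11). The standard model gave, at 72 h, 321, 329 and 161 FPKM against 192, 106 and 107 FPKM (0.99 ± 0.36). Earlier, at 24 h, it was at 192, 202 and 395 against 185, 186 and 172.2 FPKM in the inverse model, and at 187, 146 and 114 against 161, 88.7 and 114 FPKM in the standard model. Only the inverse groups did not overlap, narrowly at 24 h. Pfkp, the platelet type of the same enzyme, did not share this: its differences were -0.22 ± 0.22, -0.24 ± 0.33, -0.19 ± 0.12 and -0.01 ± 0.15 in the order used for Slc2a1. Its mean levels were 41.8 to 55.4 FPKM in the 8 groups.

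The hexokinases, which trap glucose in the cell, also differed from each other. Hk2, the inducible form, was higher by 0.58 ± 0.24, 0.86 ± 0.24, 0.48 ± 0.24 and 0.46 ± 0.13 in the same order, at 14.9 to 18.6 FPKM in the control groups and 21.6 to 27.2 FPKM in co-culture (group means). Without replicate 3 of the inverse 24 h co-culture, the differences there were 0.20 for Hk2 and 0.18 for Slc2a1. Hk1, the constitutive form and the more abundant one, differed by -0.28 ± 0.28, -0.06 ± 0.21, 0.00 ± 0.15 and 0.26 ± 0.12.

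The remaining enzymes lay between these. In the inverse model at 72 h, the log2 difference was 0.88 ± 0.12 for Gpi1, 0.85 ± 0.12 for Pgam1, 0.82 ± 0.14 for Ldha, which makes lactate, 0.80 ± 0.15 for Pkm, which makes pyruvate, 0.63 ± 0.15 for Tpi1 and 0.54 ± 0.13 for Aldoa. For all 6 the groups did not overlap there, whereas in the standard model at 72 h, with differences of 0.50 to 0.73, they overlapped. Aldoc, the brain aldolase, was near 0, with 0 to 81 fragments, and passed the filter in the standard model at 72 h only. A second gene that the annotation also names Aldoa, upstream on the same chromosome, held at most 67 fragments and was left out. Gapdh went the other way, at 14.5, 12.7 and 10.3 FPKM in inverse co-culture at 72 h against 32.8, 25.6 and 21.01 FPKM (-1.04 ± 0.19), but only 157 to 717 fragments a library were assigned to it. Gapdh has many near-identical processed copies in the mouse genome between which reads can be split, so its level and direction are uncertain. Eno1, Pgk1, Ldha, Tpi1, Pgam1, Aldoa and Pkm have such copies too, and held at least 1456 fragments each.

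**Figure D3:**
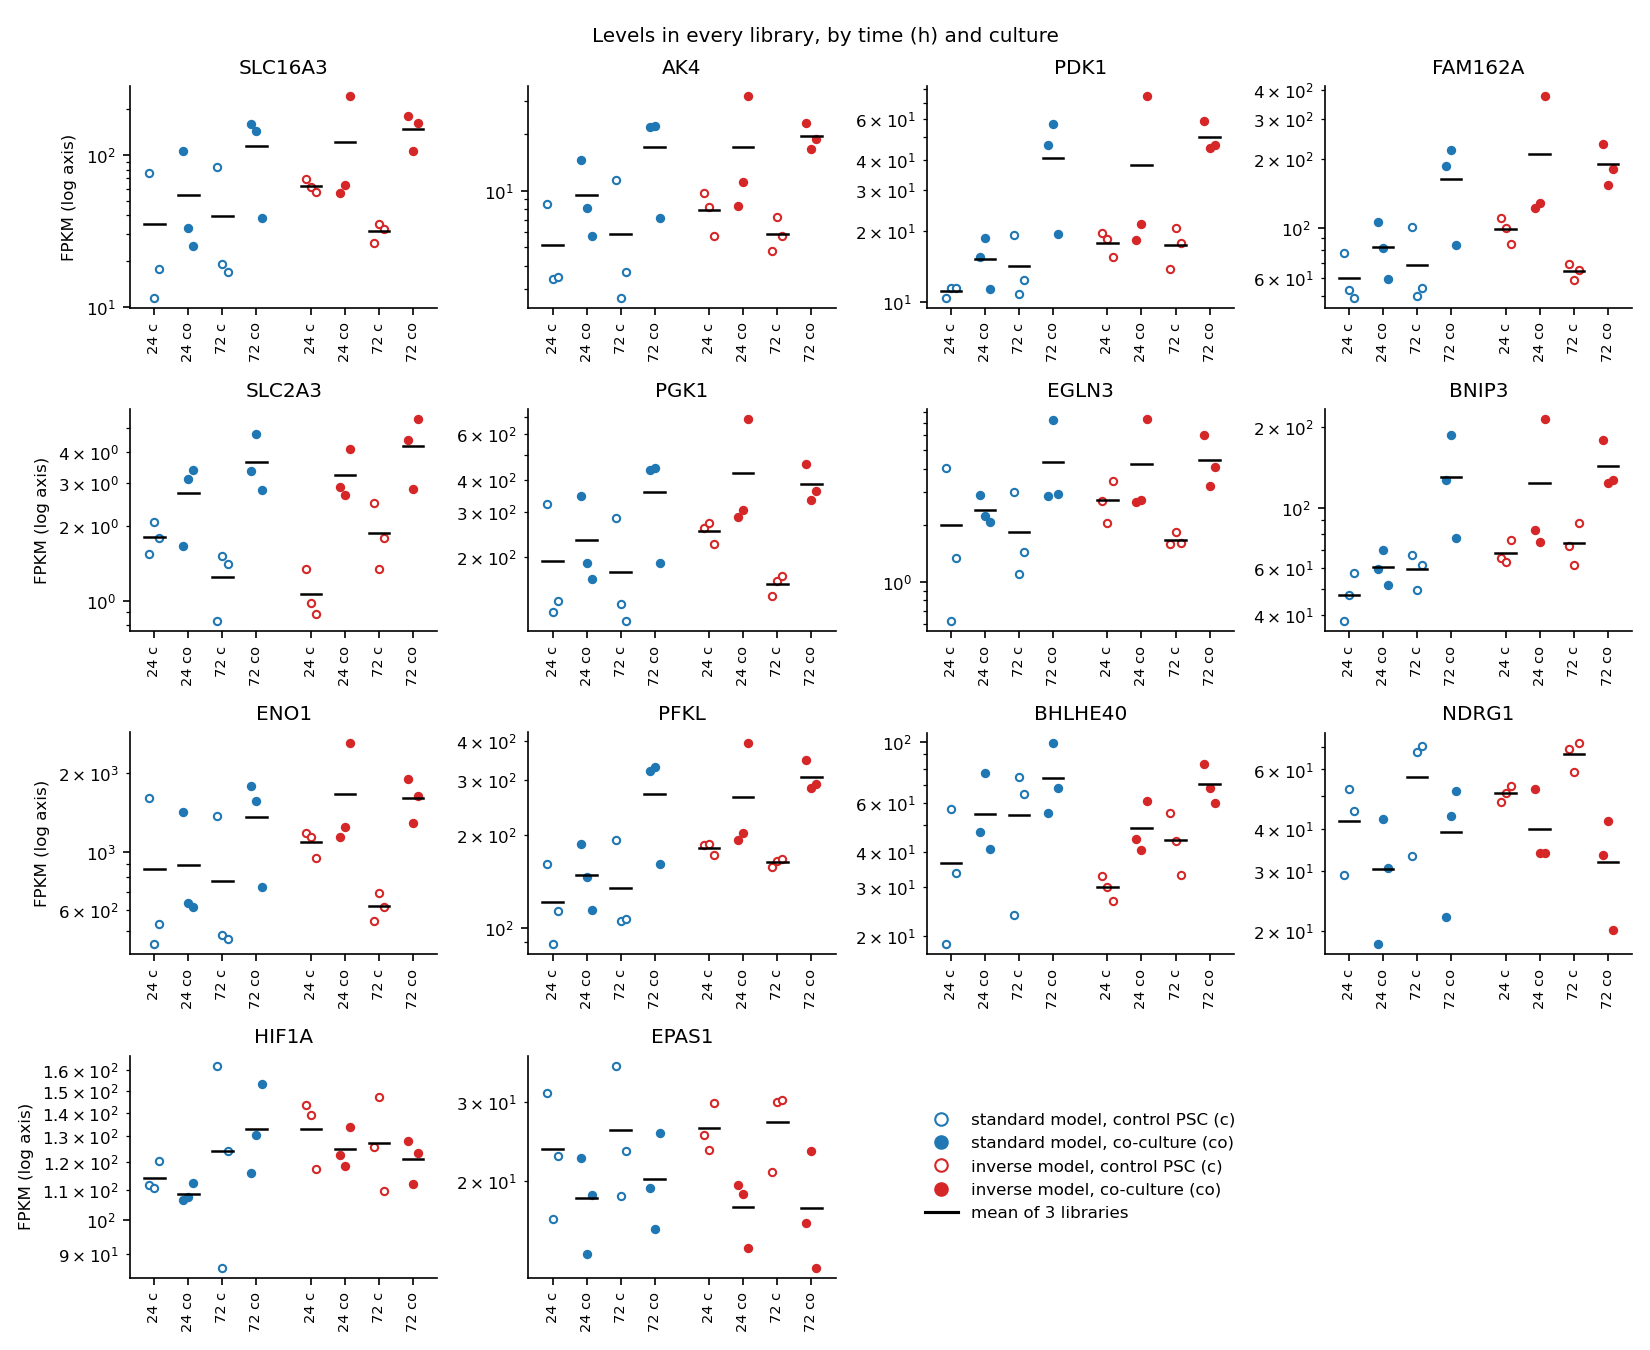
FPKM (log axis) in each of the 24 libraries for the 12 members with the largest mean co-culture difference and for Hif1a and Epas1, with control PSC as open and co-culture as filled points and the mean of 3 libraries as a bar. In the inverse model at 24 h replicate 3 is the highest co-culture library for Slc16a3 (242 FPKM) and for the others shown except Ndrg1 and Epas1.

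Of the kinases that steer the pathway, Pdk1, which holds back the entry of pyruvate into mitochondria, had the largest difference. Inverse PSC at 72 h had it at 58.4, 45.0 and 46.4 FPKM in co-culture and at 13.8, 20.7 and 17.7 FPKM in control PSC (1.501 ± 0.17). Standard PSC at 72 h held it at 46.3, 57.1 and 19.4 FPKM against 19.3, 10.8 and 12.4 FPKM (1.41 ± 0.43). The gap in the standard model was narrow (19.43 against 19.26 FPKM), but in neither model did the groups overlap at 72 h. At 24 h they did, with 18.3, 21.4 and 74.8 against 19.5, 18.6 and 15.5 FPKM in the inverse model and 15.5, 18.7 and 11.4 against 10.4, 11.5 and 11.4 FPKM in the standard model. Pfkfb3 and Pfkfb4 set the level of the main activator of phosphofructokinase. Pfkfb4 was higher by 0.67 ± 0.20 and 0.75 ± 0.28 at 24 h and by 0.36 ± 0.26 and 0.17 ± 0.17 at 72 h (standard, inverse). Pfkfb3 was higher at 24 h, by 0.22 ± 0.26 in the standard and by 0.68 ± 0.26 in the inverse model, where it was at 12.98, 15.4 and 27.8 against 9.40, 10.7 and 12.8 FPKM with no overlap. Its sign differed between the models at 72 h, at 0.43 ± 0.16 in the standard and -0.41 ± 0.17 in the inverse model.

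The mitochondrial proteins were higher in co-culture on the log2 scale in all 4 comparisons, for each of the 5. Bnip3l hardly differed in the standard model at 24 h, with means of 79.4 FPKM in co-culture and 79.8 FPKM in control PSC. Ak4, an adenylate kinase of the mitochondrial matrix, was at 22.9, 16.5 and 18.8 FPKM against 4.79, 7.23 and 5.72 FPKM in the inverse model at 72 h (1.64 ± 0.19). Levels in the standard model at 72 h were 21.8, 22.1 and 7.13 against 11.4, 2.70 and 3.69 FPKM (1.53 ± 0.62). The 24 h levels were 8.31, 11.1 and 31.7 against 9.72, 8.19 and 5.77 FPKM in the inverse and 14.6, 8.09 and 5.78 against 8.51, 3.41 and 3.49 FPKM in the standard model. The groups were apart in the inverse model at 72 h alone.

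Fam162a, a mitochondrial protein known to respond to hypoxia, was at 233, 154 and 180.3 FPKM in inverse co-culture at 72 h against 69.6, 58.8 and 65.2 FPKM (1.53 ± 0.16). Its levels at 24 h were 122, 128 and 377 FPKM against 111, 99.8 and 85.0 FPKM, and the groups were apart at both times. Standard PSC had 187, 219.8 and 83.8 against 101, 50.04 and 54.6 FPKM at 72 h and 105, 81.4 and 59.3 against 77.1, 53.2 and 49.2 FPKM at 24 h. There the groups overlapped, although each co-culture library exceeded the control of its number.

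Bnip3, a receptor for the removal of mitochondria, was at 179, 124 and 127 FPKM against 72.6, 61.5 and 87.7 FPKM in the inverse model at 72 h (0.95 ± 0.18) and at 127, 187 and 77.3 against 67.1, 49.7 and 61.3 FPKM in the standard model (1.05 ± 0.32). Neither pair of groups overlapped. At 24 h Bnip3 was at 82.7, 74.7 and 214 against 65.1, 63.3 and 76.0 FPKM in the inverse and at 59.6, 70.1 and 52.0 against 38.0, 47.5 and 57.4 FPKM in the standard model, with overlap. Its relative Bnip3l differed little, by 0.06 ± 0.11 in the inverse model at 72 h. Higd1a, which sits with the respiratory complexes, was higher by 0.54 ± 0.15 there.

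Among the genes of oxygen sensing, the messenger of Hif1a hardly differed. Hif1a was at 128, 112 and 123 FPKM in co-cultured inverse PSC at 72 h, against 126, 147 and 109.6 FPKM in its controls (-0.06 ± 0.13). For standard PSC at 72 h the levels were 116, 130.4 and 153 against 162, 86.3 and 124 FPKM (0.14 ± 0.25). Earlier, at 24 h, it was at 123, 119 and 134 against 143, 139 and 117 FPKM in the inverse and 107, 107 and 112 against 112, 111 and 120.2 FPKM in the standard model. All 4 pairs of groups overlapped, and the sign at 72 h in the inverse model turned to 0.10 when libraries were scaled by the median of gene ratios. Epas1, which encodes the alpha subunit HIF2A, had a lower mean in co-culture each time. It was at 16.1, 23.3 and 12.8 FPKM against 20.95, 30.03 and 30.4 FPKM in the inverse model at 72 h (-0.65 ± 0.24), and at 19.6, 18.7 and 14.1 against 25.3, 23.5 and 29.9 FPKM at 24 h (-0.58 ± 0.16). The standard model showed it at 19.3, 15.6 and 25.6 against 36.2, 18.5 and 23.4 FPKM at 72 h and at 22.5, 13.8 and 18.6 against 31.4, 16.5 and 22.7 FPKM at 24 h. The groups were apart in the inverse model at 24 h only.

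The prolyl hydroxylase Egln3 (PHD3), both a sensor and a target of HIF, was low, with 29 to 359 fragments. Its 72 h levels in the inverse model were 6.03, 3.24 and 4.10 FPKM against 1.59, 1.84 and 1.60 FPKM (1.15 ± 0.25), with no overlap. The standard model gave, at 72 h, 2.87, 7.25 and 2.95 against 2.99, 1.11 and 1.45 FPKM (1.01 ± 0.45). Leaving out 1 library there gave 0.62 to 1.34. The 24 h levels were 2.65, 2.72 and 7.30 against 2.69, 2.06 and 3.44 FPKM in the inverse and 2.89, 2.23 and 2.07 against 4.05, 0.620 and 1.34 FPKM in the standard model, where leaving out control replicate 2 took the log2 difference from 0.45 to -0.01. Egln1 (PHD2), the main hydroxylase, was higher by 0.52 ± 0.12 in the inverse model at 72 h.

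Bhlhe40, a transcriptional repressor of the clock and of hypoxia, was at 82.8, 67.8 and 60.1 FPKM against 55.5, 43.9 and 33.2 FPKM in the inverse model at 72 h (0.68 ± 0.20), and at 44.7, 40.8 and 61.1 against 32.9, 30.02 and 26.7 FPKM at 24 h (0.68 ± 0.16). Both pairs of groups were apart. Its levels in standard PSC were 55.5, 99.3 and 68.2 against 23.7, 74.9 and 65.0 FPKM at 72 h and 47.4, 76.9 and 41.0 against 18.6, 57.0 and 33.6 FPKM at 24 h, and without control replicate 1 its difference at 72 h was 0.05 in place of 0.56. Kdm3a, a histone demethylase, and Mxi1, which opposes MYC, differed by -0.01 ± 0.15 and 0.02 ± 0.18 in the inverse model at 72 h. In the standard model at 72 h Kdm3a was at 25.7, 27.5 and 22.8 against 19.9, 22.4 and 21.9 FPKM, with no overlap.

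The secreted and surface targets had no common direction. Vegfa, the vascular growth factor, was abundant in control PSC already, at 290.5 to 457 FPKM in inverse controls, and differed by 0.63 ± 0.24 in the inverse model at 72 h and 0.07 ± 0.11 at 24 h. Its inverse co-culture libraries at 72 h were at 452, 363 and 723 FPKM, so that difference rests in large part on replicate 3. Standard co-culture at 24 h (381.3 to 425 FPKM) lay narrowly above its controls (317 to 381.1 FPKM), and at 72 h the standard groups overlapped. Car9, a carbonic anhydrase of the cell surface that is induced by hypoxia, was at 4.56, 4.30 and 3.94 FPKM against 2.33, 2.46 and 2.06 FPKM in inverse PSC at 72 h (0.78 ± 0.19) but at 2.34, 1.57 and 2.06 against 3.93, 2.55 and 1.92 FPKM in the standard model (-0.37 ± 0.30). The standard difference of Car9 rests in large part on control replicate 1 (3.93 FPKM). Car9 rested on 15 to 78 fragments. Car12 was not detectable at this depth beyond 12 fragments and was not tested. Ankrd37 held 6 to 62 fragments and differed by -0.25 ± 0.53 to 0.11 ± 0.53.

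Ndrg1, a stress gene that HIF is known to raise in many cells, was lower. Inverse PSC at 72 h had it at 33.5, 42.2 and 20.1 FPKM in co-culture against 68.8, 58.9 and 72.0 FPKM (-1.11 ± 0.25), with no overlap. Its levels at 24 h were 52.5, 33.9 and 33.9 against 48.2, 51.0 and 53.7 FPKM (-0.37 ± 0.17). Standard PSC had 22.04, 43.8 and 51.8 against 33.3, 67.8 and 70.3 FPKM at 72 h and 18.3, 42.8 and 30.6 against 29.2, 52.4 and 45.3 FPKM at 24 h, lower in each same-numbered pair. Adm, the vasodilator adrenomedullin and another known HIF target, was lower at 24 h in both models with no overlap, at 100.2, 146 and 118 against 177, 221 and 221 FPKM in the standard model (-0.77 ± 0.18) and at 159.5, 114 and 151 against 190.1, 208 and 252 FPKM in the inverse model (-0.62 ± 0.15). At 72 h Adm differed by -0.23 ± 0.44 and -0.10 ± 0.22.

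Side by side in 1 model, the co-culture difference of the members in the inverse minus that in the standard model had a median of 0.15 at 24 h (30 of 37 members above 0) and 0.07 at 72 h (21 above and 17 below), against -0.05 and -0.07 over all genes. The value at 24 h takes in replicate 3 of the inverse co-culture, without which the median of the inverse model was 0.14, below the 0.19 of the standard model. The difference at 72 h minus that at 24 h had a median of 0.21 in the inverse model, which takes in the same library, and 0.35 in the standard model, against -0.09 and -0.08 over all genes. The largest single values were 1.58 ± 0.59 for Slc16a3 (72 h minus 24 h, inverse model) and 1.15 ± 0.33 for Car9 (inverse minus standard, 72 h). These differences are built from the contrasts the rule used and were not tested for the members, and the limma test called none of the 13554 to 13775 genes in any of the 4, with 141 to 1471 genes at an unadjusted p under 0.05.

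Time in culture alone was a contrast the rule did not use, but its libraries are those of the comparisons that chose the members. A low level in the 72 h controls enlarges both the co-culture difference and a fall over time. In inverse control PSC, 8 members fell and 2 rose from 24 h to 72 h (limma, adjusted p under 0.05, 37 tested), beside 9.05% of all 13092 genes called lower and 10.2% called higher. In either direction 19.2% of all genes were called. All 72 h libraries lay above all 24 h libraries for 6 members and below them for 10, beside 22.8% and 16.9% of all genes. Slc16a3 fell from 69.4, 61.4 and 57.3 FPKM to 26.4, 35.4 and 32.8 FPKM, by 0.99 ± 0.13 on the log2 scale (adjusted p = 0.00259). Eno1 fell from 1181, 1141 and 952 to 543, 697 and 617 FPKM, by 0.82 ± 0.13 (adjusted p = 0.00426). Pgk1 fell from 259, 271 and 225 to 140.5, 161 and 169 FPKM, by 0.68 ± 0.11 (adjusted p = 0.00456). The lactate exporter and both enzymes were lower in every library at 72 h than in any at 24 h. Fam162a fell from 111, 99.8 and 85.0 to 69.6, 58.8 and 65.2 FPKM, by 0.60 ± 0.12 (adjusted p = 0.00976). None of these groups overlapped. Ldha, Pkm, Vegfa and Pgam1 fell by 0.55, 0.52, 0.42 and 0.37, with adjusted p of 0.00753, 0.0270, 0.0211 and 0.0273.

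The members that rose were Pfkfb3, from 9.40, 10.7 and 12.8 to 31.3, 25.8 and 36.6 FPKM (1.46 ± 0.16, adjusted p = 0.00177), and Ndrg1, from 48.2, 51.0 and 53.7 to 68.8, 58.9 and 72.0 FPKM (0.38 ± 0.10, adjusted p = 0.0348). In co-cultured PSC of the inverse model, limma called none of 37 members between 24 h and 72 h, with 1 at an unadjusted p under 0.05 and a smallest adjusted p of 0.243, beside 0.00784% of all genes. No member's groups were apart there, beside 7.81% of all genes above and 13.9% below. There Slc16a3 differed by 0.59 ± 0.51, Eno1 by 0.03 ± 0.31 and Pfkfb3 by 0.37 ± 0.27. These values depend on 24 h co-culture replicate 3. Without it the differences were 1.26 for Slc16a3, 0.41 for Eno1 and 0.69 for Pfkfb3, the median over the members was 0.41 in place of 0.13, and the 72 h libraries lay wholly higher for 21 members and wholly lower for 1, beside 14.5% and 29.5% of all genes. Limma still called no member. The same controls of 24 h and 72 h entered the co-culture comparisons that chose the members, so the test of controls over time is not independent of the rule.

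**Figure D4:**
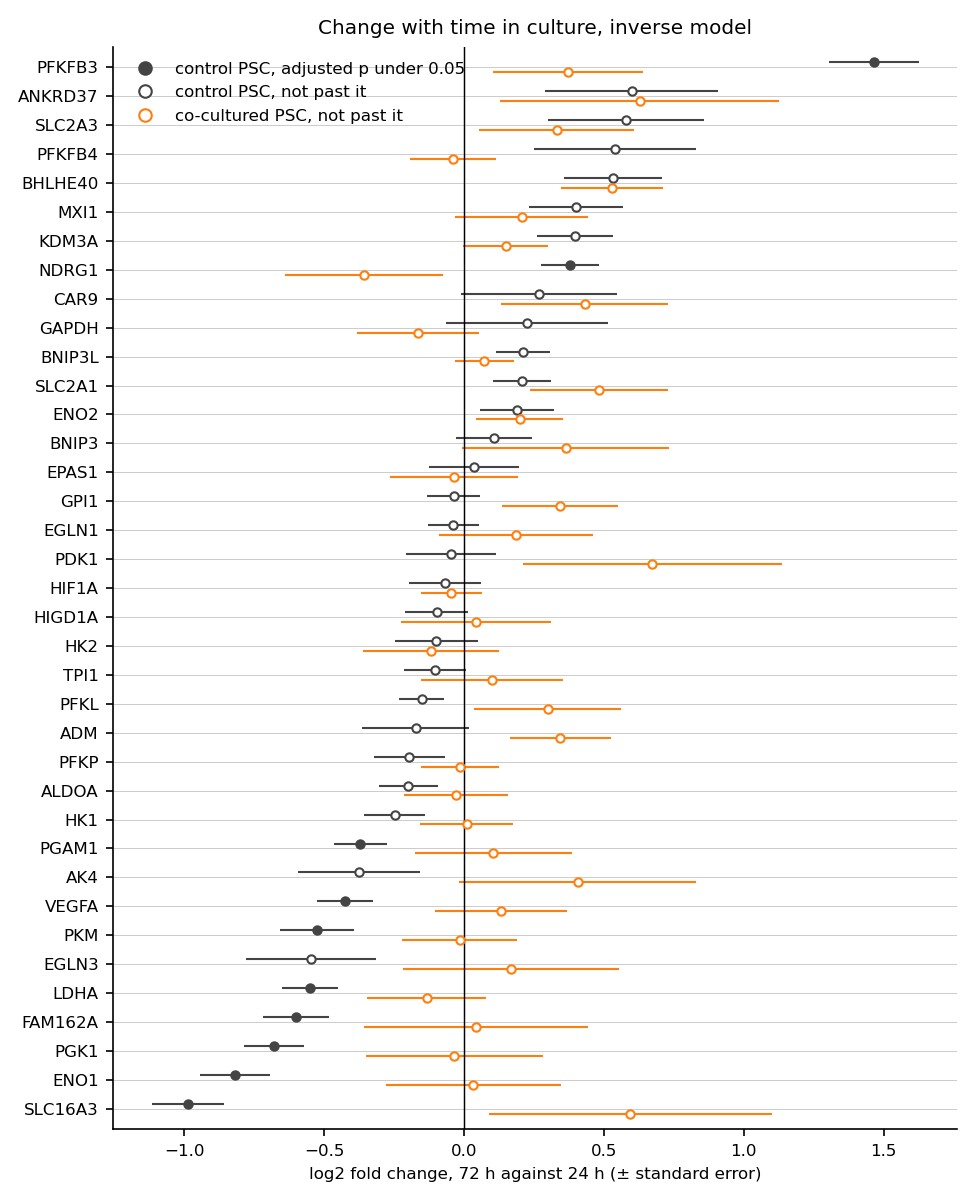
Log2 fold change from 24 h to 72 h with its standard error in control (grey) and co-cultured (orange) PSC of the inverse model, for the 37 members tested, with filled points past an adjusted p of 0.05. Slc16a3, Eno1 and Pgk1 fell in the controls while Pfkfb3 rose by 1.46, and no co-culture point passed.

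Other lists of markers moved with these controls. From 24 h to 72 h the summed adipocyte markers went from 651 to 1086 FPKM to 1708 to 2559 FPKM in inverse control PSC (lowest and highest library, 7 of 8 genes above 1 FPKM), and the cycling genes from 206 to 340.2 FPKM to 118 to 133 FPKM. Macrophage markers went from 81.2 to 93.1 FPKM to 141 to 285 FPKM, and Acta2, a marker of activated PSC, from 2790.4 to 2922 FPKM to 763 to 1347 FPKM. In inverse co-culture at 72 h the adipocyte sum was 414 to 964 FPKM and the cycling sum 174 to 233 FPKM. Their part in the results was not tested. With all 24 libraries in 1 model, only Pfkfb3 among the members still passed, while the calls over all 13092 genes fell from 2516 to 236. In the same setting 123 genes of the table were called in inverse co-culture over time in place of 1, and no member. Without a single inverse control library, 5 to 8 members were called lower and 1 to 3 higher, beside 4.38% to 8.66% and 5.19% to 9.82% of all genes. The fewest, 5 and 1, came without 72 h replicate 1 or 24 h replicate 2, and 5 were called lower without 72 h replicate 3.

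In the standard model no member was called between 24 h and 72 h, in control PSC (smallest adjusted p = 1.00, 0 members at an unadjusted p under 0.05) or in co-cultured PSC (smallest adjusted p = 0.876, 6 members), by limma, beside 0% of all genes. The control groups were apart for 1 member upwards and 1 downwards, beside 1.74% and 2.84% of all genes. In co-cultured PSC, 35 of the 37 members had a higher mean at 72 h, beside 36.2% of all genes, with a median of 0.42 against -0.07 over all genes. These co-culture libraries entered the comparisons by which the members were chosen, so this count is a description. Pdk1 there differed by 1.29 ± 0.41 and Bnip3 by 1.02 ± 0.31, both without overlap of the groups, as was the case for 5 members and 2.47% of all genes, while 0 members and 7.66% of all genes lay wholly lower. Without 1 of these 6 libraries, 5 to 21 members lay wholly higher, beside 4.64% to 6.99% of all genes. None lay wholly lower, beside 9.91% to 20.3% of all genes.

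Control PSC of the inverse and the standard model were compared at each time. They also differed in RNA input (120 against 450 ng) and, per the study's methods, in medium. Standard PSC were seeded in a low-glucose medium with more serum, which was replaced by the co-culture medium when timing began. Inverse PSC were seeded in the co-culture medium 24 h before timing began, and it was not changed. Model, input and medium cannot be told apart in this comparison. At 24 h 31 of 37 members were higher in inverse controls, beside 63.7% of all genes, with a median of 0.31 against 0.06 over all genes. At 72 h 26 of 37 were higher, beside 62.9% of all genes, with a median of 0.11 against 0.08. Limma called none at either time (smallest adjusted p = 1.00 and 0.717, with 5 and 2 members at an unadjusted p under 0.05), beside 0% of all genes. Inverse controls lay wholly above standard ones for 7 members at 24 h and 3 at 72 h, beside 4.65% and 11.1% of all genes, and wholly below for 1 and 0, beside 1.8% and 3.14%. Without standard control replicate 1 they lay wholly above for 23 and 19 members, beside 21.8% and 21.4% of all genes, and the median at 72 h was 0.30. Without standard control replicate 1, in which Slc16a3 was at 76.3 FPKM against 11.5 and 17.9 in the others, 6 of 37 members were called higher at 24 h, beside 0.274% of all genes: Slc16a3, Eno1, Pgk1, Pgam1, Fam162a and Pfkl, by 2.08, 1.17, 0.97, 0.93, 0.93 and 0.85. The summed level of the members was also highest in that library, at 8102 FPKM against 4297 and 4737 FPKM. These controls entered the comparisons by which the members were chosen, so nothing is read from these calls. Smooth muscle actin (Acta2) was highest in standard control replicate 1 too, at 5963 FPKM against 824 and 1509 FPKM. Its part in the result was not tested.

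Genes of the same pathways that are not members were listed from textbook knowledge with earlier results of these data known, and were tested. In the inverse model at 72 h, 12 of 36 tested further HIF targets rose and none fell, beside 3.27% and 9.57% of all genes. In the same comparison 14 of 32 tested genes of pyruvate entry and the citric acid cycle fell and none rose. Of further genes of glucose handling 7 of 22 fell and none rose, beside the same 9.57% of all genes called lower. In the pentose phosphate pathway 1 of 10 fell, which is near that share. None of 13 oxygen sensing and HIF regulator genes was called by limma. In the standard model limma called no gene of these lists at either time, although 29 of 36 HIF targets had a higher mean at 72 h, with a median of 0.46 against -0.09 over all genes. The paper, which tested counts with DESeq2, lists Ndufa4l2 and Mgarp among the genes that differed there at 72 h. Its listing of both was known when the list of HIF targets was written. The counts for that list are therefore not independent of these data.

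Ndufa4l2, which damps respiration at complex I and is known as a HIF target, rose most. It was at 117, 51.5 and 144 FPKM in inverse co-culture at 72 h against 3.998, 10.9 and 6.27 FPKM (3.77 ± 0.44, adjusted p = 0.00475). Standard PSC at 72 h held it at 65.9, 102 and 10.3 FPKM against 9.85, 2.55 and 3.99 FPKM. At 24 h inverse PSC had 20.4, 14.5 and 210.1 against 12.01, 12.5 and 21.1 FPKM. As for Slc16a3, replicate 3 was the highest co-culture library of the inverse model at 24 h and the lowest of the standard model at 72 h.

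Cox4i2, the hypoxia form of a cytochrome oxidase subunit, rose from 2.43, 2.41 and 4.13 to 18.3, 5.51 and 20.97 FPKM in inverse PSC at 72 h (1.98 ± 0.47, adjusted p = 0.0340). Mgarp, a mitochondrial transport protein, rose by 1.77 ± 0.35 (adjusted p = 0.0191), and Stc2, a secreted stress glycoprotein, by 1.60 ± 0.39 (adjusted p = 0.0378). The call of Cox4i2 held in 7 of 16 other settings, that of Stc2 in 9 and that of Mgarp in 12. Among the further HIF targets that rose were P4ha1, Tmem45a, Ddit4, Loxl2, Plod1, P4ha2 and Lox, of which P4ha1, P4ha2, Plod1, Lox and Loxl2 modify collagen. They rose by 0.62 to 1.08. These 7 lay outside the rule for named genes and were chosen after their values were seen.

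Among the genes of pyruvate entry that fell were a carboxylase, the carrier and kinases. Pcx, which carboxylates pyruvate, went from 97.9, 71.0 and 95.1 to 26.8, 36.5 and 13.9 FPKM (-1.85 ± 0.32, adjusted p = 0.0132). Mpc1 and Mpc2, which together form the mitochondrial pyruvate carrier, fell by 1.13 ± 0.20 and 1.30 ± 0.24 (adjusted p = 0.0146 and 0.0168). Pdk4 and Pdk2, kinases related to Pdk1, fell by 1.24 ± 0.22 and 1.06 ± 0.19 (adjusted p = 0.0151 and 0.0140), opposite in sign to Pdk1. The calls of Mpc2 and Pdk2 each held in 12 of 16 other settings, and those of Pcx, Mpc1 and Pdk4 in 14. The other 9 called, with smaller changes, include the citrate synthase Cs and Sdha of the cycle.

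Of the glucose handling genes, Gpd1, which links glycolysis to lipid synthesis, went from 52.6, 26.0 and 78.8 to 7.04, 9.27 and 3.52 FPKM (-2.85 ± 0.44, adjusted p = 0.00931). Slc2a4, the insulin-responsive transporter GLUT4, went from 8.64, 5.68 and 12.9 to 1.49, 2.40 and 0.359 FPKM (-2.42 ± 0.47, adjusted p = 0.0187), a call that held in 11 of 16 other settings. Pfkfb1 and Pfkfb2 fell by 1.4996 ± 0.37 and 1.17 ± 0.25 (adjusted p = 0.0387 and 0.0243), and the call held in 5 of 15 other settings for Pfkfb1 and in 11 of 15 for Pfkfb2. Prps1, which feeds nucleotide synthesis, fell by 0.78 ± 0.12 (adjusted p = 0.00843). Gpd1, Slc2a4, Pcx and Pdk4 are also abundant in fat cells, and the adipocyte markers were lower in the same co-culture (414 to 964 against 1708 to 2559 FPKM), as were macrophage markers (62.1 to 91.6 against 141 to 285 FPKM). Their part in the result was not tested.

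**Figure D5:**
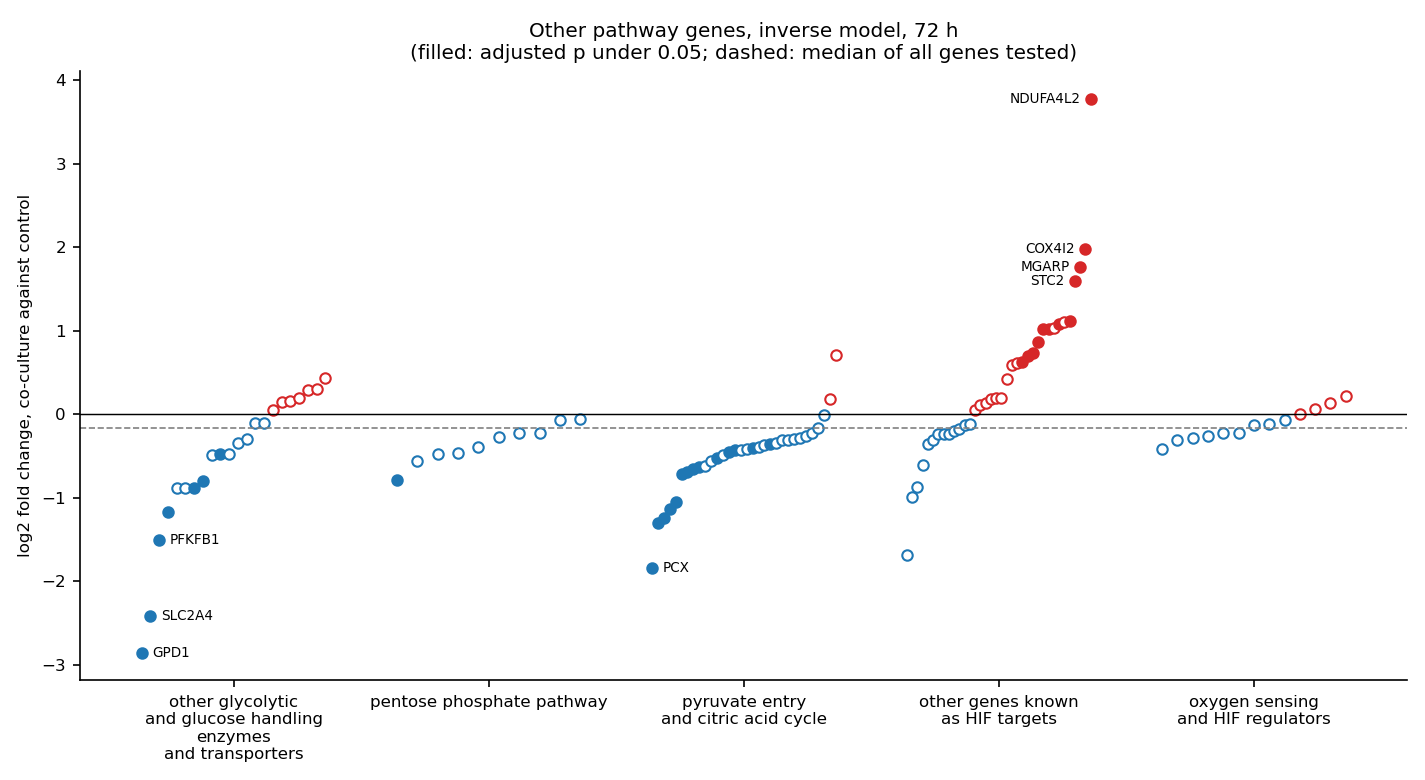
Log2 fold change of each other pathway gene in inverse co-culture against control at 72 h, ordered within its list, with filled points past an adjusted p of 0.05 and a dashed line at the median of all genes (-0.16). The 12 filled points among other HIF targets are above 0 and the 14 in the citric acid cycle list are below it.

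These counts depended on single libraries. The 14 citric acid cycle calls went to 0 without inverse control replicate 1 or 3 at 72 h, to 3 without co-culture replicate 1 and to 8 without co-culture replicate 2. The 12 HIF target calls went to 3 without control replicate 3 or co-culture replicate 1, 4 without control replicate 1, 6 without co-culture replicate 3 and 7 without control replicate 2. The 7 glucose handling calls went to 1 without control replicate 1 or 3, 2 without co-culture replicate 1 and 4 without control replicate 2. Over all genes, the 1251 lower calls went to 339, 681 and 230 without control replicates 1, 2 and 3. They went to 384, 1227 and 1238 without co-culture replicates 1, 2 and 3. The 427 higher calls over all genes went to 175, 233 and 138, and to 119, 402 and 399, in the same order. Scaled by the median of gene ratios, which moved the median of all genes from -0.16 to -0.01 and the calls over all genes from 427 higher and 1251 lower to 746 and 686, there were 13 HIF target calls higher and 5 citric acid cycle calls lower.

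At 24 h in the inverse model, 3 of these genes were called. Eno3, the muscle enolase, fell from 43.9, 55.3 and 54.7 to 21.4, 24.4 and 25.2 FPKM (-1.10 ± 0.13, adjusted p = 0.00670), while the libraries of its relative Eno1 overlapped at that time. In the same libraries Acta2, the marker of activated PSC, went from 2835, 2790.4 and 2922 FPKM to 1474, 1519 and 1253 FPKM, and its part in these calls was not tested. Slc16a1 (MCT1), the transporter that often imports lactate, rose from 5.57, 5.71 and 5.35 to 9.21, 9.84 and 9.42 FPKM (0.73 ± 0.14, adjusted p = 0.0324). Tmem45a rose by 0.69 ± 0.14 (adjusted p = 0.0385). Both calls were lost with no filter on low values, with all 24 libraries in 1 model, with the replicate block and without control replicate 1, 2 or 3. Their libraries did not overlap, and Slc16a1 in replicate 3, the library in which the members stood highest, was at 9.42 FPKM like the others. At 72 h in the inverse model the Slc16a1 groups did overlap, at 10.1, 15.4 and 6.87 against 11.4, 6.59 and 7.44 FPKM.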

How the data were processed

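Per the labels and the study's methods, PSC were lysed and RNA was sequenced as paired reads, which the authors aligned to GRCm38.p6 with HISAT2 2.0.5 and counted per gene with featureCounts 1.5.0-p3. The authors deposited FPKM, and tested counts with DESeq2 1.20.0, which was not repeated because the values used here are FPKM. Multiplying FPKM by the mean transcript length of GENCODE M21 gave whole fragments for 95.6% to 96.5% of values between 1 and 20 fragments (within 0.02 of a fragment), and from these the depth of 15932737 to 24798761 fragments a library. Counting is not stated to use strand, so overlapping genes on opposite strands can share reads.

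The members and lists were chosen with earlier results of these data known. Genes above 1 FPKM in at least 3 of the libraries compared were tested with limma 3.58.1 (R 4.3.3) on log2(FPKM + 0.5) with the variance trended on mean intensity, two-sided tests, over the 2 groups of a comparison, with Benjamini-Hochberg adjustment over all genes tested and a limit of 0.05. Errors beside log2 differences are limma's standard errors. Fold changes on this scale understate those of low genes. The fit was tested on simulated data: of genes changed by 1 on the log2 scale, 67.7% of 192 were called with the spread of inverse control PSC over time, 43.1% of 197 with that of the inverse and 29.8% of 191 with that of the standard 72 h co-culture comparison. Values of each library were given for the 12 members with the largest mean co-culture difference, for Hif1a and Epas1, and for up to 5 members called per contrast, and of the other genes up to 5 per list. Others named were chosen after their values were seen.

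Deviations of same-numbered libraries correlated over genes at 0.32 to 0.77 in each standard comparison, and at -0.12 to 0.16 in the inverse ones, so the number was taken to pair libraries in the standard model only, as a hint from the data. Alternatives were pseudocounts of 1 and 0.1, no filter, gene-ratio scaling (each library divided by its median ratio to the genes' geometric means), a stricter filter (mean FPKM over 5), no trend, all 24 libraries in 1 model, the replicate block and leaving out each library, with a count test on recovered fragments (voom) and quantile normalization added after seeing the data. Some items are not reported here.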

Additional observations from a re-analysis of the deposited data

Results flagged for a closer look

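For 2 genes outside the members, all 3 co-culture libraries lay on opposite sides of their control mean on the scale of log2(FPKM + 0.5) in the 2 models at 24 h. Stc2 was at 2.86, 2.41 and 2.44 FPKM against 2.22, 4.18 and 2.87 FPKM in standard PSC (log2 -0.19) and at 3.92, 3.37 and 7.63 against 2.51, 2.04 and 2.67 FPKM in inverse PSC (0.84). The difference between the models was 1.0337 ± 0.41 on the log2 scale (limma, adjusted p = 1.00). Pfkfb1 was at 2.65, 2.72 and 4.21 against 1.196, 3.27 and 3.74 FPKM in the standard model (0.27) and at 3.27, 2.61 and 2.58 against 2.42, 4.18 and 3.93 FPKM in the inverse model (-0.25), with a difference of -0.5195 ± 0.49 (limma, adjusted p = 1.00). Neither difference passed the test. For each gene the sign in standard PSC rests on a single control library and turns without it. That library was replicate 2 for Stc2 (4.18 FPKM) and replicate 1 for Pfkfb1 (1.196 FPKM).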

How the results depend on the processing

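The members' median stayed above 0 in each co-culture comparison and setting run. Scaling by the median of gene ratios moved it in the inverse model at 72 h from 0.63 to 0.7881. Leaving out 1 library gave medians of 0.04 to 0.2746 (standard, 24 h), 0.4173 to 0.7469 (standard, 72 h), 0.1356 to 0.5617 (inverse, 24 h) and 0.5121 to 0.6996 (inverse, 72 h), with 21 to 28, 28 to 32, 25 to 31 and 28 to 32 members higher. In inverse control PSC from 24 h to 72 h, the 2 members called higher and 8 called lower became 1 and 5 with no filter and with no trend, 1 and 0 with all 24 libraries in 1 model, 4 and 8 with voom, 2 and 5 with quantile normalization, and 2 and 7 with the replicate block. Without 1 library they were 1 to 3 and 5 to 8, and in inverse against standard controls at 24 h 0 to 6 were called higher. Over all genes in inverse controls over time, the 1331 higher and 1185 lower calls became 761 and 664 of 24590 with no filter. With no trend they were 1104 and 889 of 13092, and with the replicate block 1019 and 974. With voom they were 1712 and 1348, and with quantile normalization 1214 and 1276. Of the other pathway genes at 72 h in the inverse model, 12 were called higher and 22 lower, and 4 and 9 with no filter, 7 and 11 with no trend, 7 and 11 with the replicate block, 10 lower with gene ratios, 14 lower with quantile normalization, and 3 to 14 higher and 2 to 21 lower without 1 library. At 24 h, 2 higher and 1 lower became 0 higher with no filter, 1 higher with no trend, 0 and 0 with all 24 libraries, 0 higher with the replicate block, 2 lower with voom, and 0 to 3 higher and 1 to 3 lower without 1 library. Over all genes at 72 h, the 427 higher and 1251 lower calls became 204 and 684 of 24201 with no filter. With no trend they were 329 and 981, with the replicate block 260 and 642, and with quantile normalization 677 and 677. At 24 h the 317 calls over all genes became 50 with no filter, 98 with no trend and 88 with the replicate block. Over all genes, the count test on recovered fragments (voom) called 514, 2062 and 3060 in the inverse co-culture comparisons at 24 h and 72 h and in inverse controls over time, against 317, 1678 and 2516, and 0 in the other 7 of the 10 contrasts. With all 24 libraries in 1 model these 3 counts fell to 12, 940 and 236, while others rose, from 0 to 5 and 45 in the standard co-culture comparisons at 24 h and 72 h, from 1 to 123 in inverse co-culture over time and from 0 to 3 between the models' controls at 72 h, with 0 in the remaining 3. Apart from the smaller samples and the larger number of genes with no filter, the cause was not tested. For the 21 tested results of single genes whose calls were followed through the settings, 266 of 334 alternative values kept their call, 68 lost it and 0 reversed. The replicate block changed no other call in the tested contrasts of the members. Ankrd37, Car9, Car12 and Aldoc are limited by depth.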
